A study of Mus musculus with 12 samples.

Results

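The proteasome genes of the mouse hippocampus were described across 12 RNA-seq libraries. Members were the genes whose symbol begins with Psm, a letter from a to g and a digit, without Psmb8 and Psmb9, which reached 0.5 FPKM (fragments per kilobase of transcript, scaled to the library's mapped fragments) in at least 3 libraries. Of 21878 genes, 50 carried such a symbol, 48 were left without those 2 genes, and 46 reached the floor. One of the 46, Psmc3ip, shares only its name with the family: it encodes a partner protein of meiotic recombinases and was kept apart, which left 45 parts of the proteasome. They comprised 15 core subunits (7 of the alpha ring and 8 of the beta ring), 23 regulatory proteins (6 ATPases, 11 non-ATPase subunits, 5 activators and 1 inhibitor) and 7 assembly factors. Psma8, the testis form of an alpha subunit, lay between 0 and 0.157 FPKM, and Psmb11, the thymus form of a beta subunit, between 0.00461 and 0.0596 FPKM. Both fell below the floor. The members nearest above it were Psmc3ip, at 0.372 to 1.26 FPKM with 11 libraries at the floor or over it, and Psme2b, at 1.32 to 2.26 FPKM.

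The study compared mice with a conditional presenilin knockout (DKO) with wild-type mice (WT), killed at 9 a.m. (day) or 9 p.m. (night) under sodium pentobarbital. There were 4 groups (day WT, night WT, day DKO, night DKO) of 3 libraries each, prepared from ribosome-depleted total RNA with a kit that keeps the strand. The labels give the tissue as brain and the study's description as hippocampus. The labels name no promoter or cell type that drives the deletion, no age and no sex, and nothing states that each library came from a separate mouse, so p-values measure the spread between libraries, which may be technical. Psen2, a targeted gene, lay at 0.275 to 0.594 FPKM in the 6 DKO libraries and at 1.47 to 3.64 in the 6 WT libraries. Night WT replicate 1 stood apart in the Y-linked gene Ddx3y, at 0.0225 FPKM against 6.83 to 8.56 in the other 11 libraries. The Y-linked genes Uty, Eif2s3y and Kdm5d lay there at 0.00224, 0.00609 and 0 FPKM, and at 1.76 FPKM or more in the other 11. Comparisons with night WT may therefore mix sexes, which was not tested. In tissue, fewer cells of a type and less RNA per cell cannot be told apart.

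The proteasome is the main protease that degrades ubiquitin-tagged proteins in the cytosol and nucleus. Its core particle is a barrel of stacked rings: the alpha rings gate the entrance, and the beta rings hold the catalytic sites. The regulatory particle binds ubiquitin chains, removes them and, through its ring of ATPases, unfolds the substrate and feeds it into the core, while activators such as PA28 and PA200 cap the core in its place. Dedicated chaperones assemble both particles. In neurons the proteasome takes part in the turnover of synaptic proteins, and the transcription factor encoded by Nfe2l1 is known to drive proteasome genes together when degradation is impaired.

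That factor and its relative Nfe2l2 bind the antioxidant response element, whose core was searched as TGACNNNGC on both strands of RefSeq promoters (build GRCm38.p6) from 250 bases before to 50 after each start. Of the parts, 38 matched a promoter by symbol, with 41 promoters in all. The motif occurred in 6 of the 41 (14.6%), against 14% of the 12595 promoters of tested genes and 12.4% of all 32851. The match began 7 bases before the start in Psme4, 47 in Psmb5 and 9 in Psmb6, and the others were in Psmd12, Psmc6 and Psmd9. In Psme4 it ran across the start. The Psmb6 promoter start used here lies inside the gene, which begins at base 70525324 of chr11. The share in the parts lies near that of the other promoters. The 4 windows below run from 150 bases before to 10 after the start, 5′ to 3′ on the strand of the gene, with the match in capitals. Psme4 is shown as the called regulatory gene with a match, Psmb5 and Psmb6 as catalytic core subunits with a match near the start, and Psma2, which has no match in this window, because it leads the time comparison. The last 3 were chosen after their values were seen.
Psme4 (chr11:30771625-30771784, plus strand): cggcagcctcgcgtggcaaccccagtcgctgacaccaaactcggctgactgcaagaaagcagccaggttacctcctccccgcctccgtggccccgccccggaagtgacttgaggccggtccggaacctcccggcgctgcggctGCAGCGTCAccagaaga
Psmb5 (chr14:54617986-54618145, minus strand): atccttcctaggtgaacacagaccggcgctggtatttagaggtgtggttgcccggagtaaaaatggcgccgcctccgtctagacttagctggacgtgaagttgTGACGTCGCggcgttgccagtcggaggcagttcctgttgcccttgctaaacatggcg
Psmb6 (chr11:70525207-70525366, plus strand): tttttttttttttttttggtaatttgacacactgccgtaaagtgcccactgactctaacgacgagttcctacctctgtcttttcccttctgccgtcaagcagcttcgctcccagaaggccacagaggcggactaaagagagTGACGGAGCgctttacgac
Psma2 (chr13:14613092-14613251, plus strand): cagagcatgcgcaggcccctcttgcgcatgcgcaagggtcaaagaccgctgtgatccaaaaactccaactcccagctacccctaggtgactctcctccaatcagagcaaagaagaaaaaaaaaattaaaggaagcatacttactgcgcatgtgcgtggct

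Core subunits were the most abundant class. Psmb4, a beta ring subunit without catalytic activity, had the highest mean, 87.5 FPKM (range over the 12 libraries 68.8 to 98.0), followed by Psmb5, the catalytic subunit of chymotrypsin-like activity, at 83.3 FPKM (68.7 to 97.9). The lowest core member was Psmb10, an inducible beta subunit of the immunoproteasome, at 5.87 FPKM (5.16 to 6.74). Among regulatory genes, the means ran from 45.1 FPKM for Psmc3, an ATPase of the base, to 1.73 for Psme2b. Psme2b is a near copy of the PA28 beta gene Psme2, so the split of reads between those 2 genes is uncertain. Assembly factors were lower: Psmd5, a chaperone of the base, had the highest mean at 12.8 FPKM (range up to 14.5) and Psmd10, another base chaperone known as gankyrin, the lowest at 3.82 FPKM (3.20 to 4.47). Psmg4, a chaperone of the alpha ring, ranged from 4.79 to 10.6 FPKM. The parts' median standard deviation within groups was 0.0912 on the log2(FPKM + 1) scale, against 0.096 for all 12689 tested genes.

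**Figure D1:**
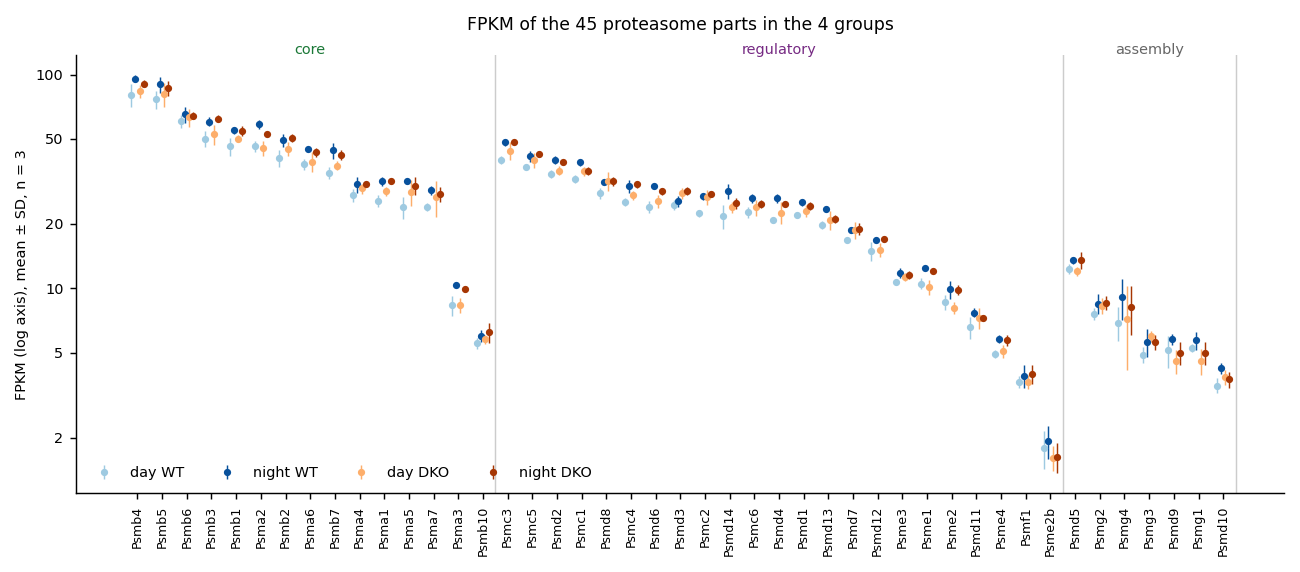
Mean FPKM with its SD (3 libraries a group) of the 45 proteasome parts on a log axis, grouped by class and ordered by their mean. Core subunits reach 87.5 FPKM (Psmb4), regulatory genes 45.1 (Psmc3) and assembly factors 12.8 (Psmd5).

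Some proteasome genes rose at night. Averaged over both genotypes, 15 of the 45 parts rose at night and none fell at an adjusted p under 0.05 (limma across all tested genes, Benjamini-Hochberg). In the same comparison 5.19% of all tested genes rose. The difference, given here and in what follows as night minus day or DKO minus WT on the log2(FPKM + 1) scale, was above 0 in all 45 parts, with a median of 0.157, while 69.4% of all tested genes were above 0, with a median of 0.049. By class, 7 of the 15 core subunits rose, 8 of the 23 regulatory genes and 0 of the 7 assembly factors, of which 1 had an unadjusted p under 0.05.

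After each library was divided by a median-of-ratios factor, which sets the typical gene level with the other libraries, 7 of the 45 parts rose and none fell, beside 1.63% of all tested genes. These were Psma2, Psma1, Psma3, Psmb7, Psmd6, Psme1 and Psmc4, all among the 15. With 1 library left out as well, 0 to 8 parts rose: 0 when it was night WT replicate 3, and 1 when it was replicate 1 of day WT, replicate 1 of day DKO or replicate 3 of night DKO. For these omissions the share of all genes that rose is not given. With all 12 libraries kept and scaled, the difference was above 0 in 42 of 45 parts, with a median of 0.10 against 0.003 for all tested genes. The median was 0.134 in core subunits (0.192 unscaled), 0.078 in regulatory genes (0.136 unscaled) and 0.050 in assembly factors (0.10 unscaled). The order of the 3 classes was the same on both scales, and no test of the difference between classes was made. The parts are short: their longest protein-coding transcripts had a median of 1440 bases, against 3265 for all tested genes. With each library's trend on transcript length removed, 6 parts rose, beside 1.77% of all genes.

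Among core subunits, Psma2 (chr13:14613242-14625673, GRCm38.p6) had the smallest p. This alpha ring subunit stood at 43.2, 47.2 and 48.5 FPKM in day WT, 41.3, 48.7 and 45.9 in day DKO, 56.2, 61.6 and 58.1 in night WT and 52.6, 52.4 and 52.2 in night DKO. Every night library was above every day library, and night WT was above night DKO. The averaged difference was 0.27 (SE 0.048, 1.21-fold, adjusted p = 0.0117), and 0.21 (SE 0.040, adjusted p = 0.0157) after scaling. Psma1, also of the alpha ring, read 23.8, 26.0 and 27.1 FPKM in day WT, 27.0, 29.8 and 28.7 in day DKO, 30.8, 33.5 and 30.9 in night WT and 32.1, 30.8 and 32.3 in night DKO. Here too no day library reached a night library, and the averaged difference was 0.22 (SE 0.044, adjusted p = 0.0175). Psma3, an alpha subunit with a far lower level, read 7.30, 8.97 and 8.70 FPKM in day WT, 7.70, 8.96 and 8.31 in day DKO, 10.5, 10 and 10.6 in night WT and 9.57, 10.1 and 10.2 in night DKO. Its groups by time did not overlap, and it rose by 0.26 (SE 0.052, adjusted p = 0.0177). Psmb7, the catalytic subunit of trypsin-like activity, stood at 32.1, 36.0 and 35.6 FPKM in day WT, 35.4, 38.5 and 38.6 in day DKO, 41.8, 48.6 and 42.1 in night WT and 39.5, 42.5 and 44.0 in night DKO. Its day and night libraries did not overlap, and it rose by 0.25 (SE 0.051, adjusted p = 0.0199). The other core subunits that rose were the beta ring genes Psmb3 (0.25), Psmb2 (0.22) and Psmb1 (0.18). The catalytic subunits differed among themselves in value: Psmb5 had a difference of 0.16 (adjusted p = 0.191) and Psmb6, the caspase-like subunit, 0.06 (95% interval -0.06 to 0.19, adjusted p = 0.518), and 0.01 after scaling.

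Among regulatory genes, Psme1 (chr14:55578494-55581527) had the smallest p. It encodes the alpha subunit of PA28, an activator inducible by interferon gamma, and stood at 10.1, 10.2 and 11.2 FPKM in day WT, 10.1, 10.9 and 9.34 in day DKO, 12.5, 12.4 and 12.8 in night WT and 11.8, 12.4 and 12.1 in night DKO. The lowest night library was above the highest day library, and the averaged difference was 0.24 (SE 0.043, adjusted p = 0.0130). Psmd6, a lid subunit, read 22.8, 23.7 and 25.7 FPKM in day WT, 23.7, 27.1 and 26.1 in day DKO, 30.2, 30.4 and 29.6 in night WT and 28.1, 27.4 and 29.7 in night DKO. All night libraries were higher than all day libraries, with a difference of 0.23 (SE 0.045, adjusted p = 0.0169). Psmd4, a ubiquitin receptor, read 20.1, 21.5 and 20.7 FPKM in day WT, 19.7, 23.3 and 24.8 in day DKO, 26.5, 27.8 and 25.1 in night WT and 24.1, 25.4 and 24.9 in night DKO. One day DKO library reached the night range, and the gene rose by 0.23 (SE 0.052, adjusted p = 0.0266). Psmc4, an ATPase, stood at 24.1, 25.4 and 26.4 FPKM in day WT, 26.0, 28.7 and 27.0 in day DKO, 28.1, 32.2 and 29.7 in night WT and 31.8, 29.9 and 30.0 in night DKO. One day DKO library lay above the lowest night library, and it rose by 0.20 (SE 0.045, adjusted p = 0.0268). The other regulatory genes that rose were the scaffold subunit Psmd2 (0.17), the ATPase Psmc3 (0.21), the PA28 beta gene Psme2 (0.22) and the PA200 gene Psme4 (0.17). At the other end, Psmd3, a lid subunit, had a difference of 0.05 (95% interval -0.05 to 0.15) and -0.01 after scaling, so its sign turned with the scaling. The sign turned likewise in Psme2b and in the assembly factor Psmg3.

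No assembly factor passed the test. Psmd5 had the smallest p among them, with a difference of 0.14 (SE 0.048, adjusted p = 0.0944). Psmg4 had the highest difference of the class, 0.27, with an interval of -0.09 to 0.63, which covers the differences of every other part. Psmc3ip, which is no part of the proteasome, read 0.372, 0.621 and 0.624 FPKM in day WT, 0.708, 0.649 and 1.17 in day DKO, 1.17, 0.854 and 1.26 in night WT and 1.11, 1.07 and 1.03 in night DKO. It rose by 0.31 (SE 0.078, adjusted p = 0.0389), and by 0.28 with an adjusted p of 0.0653 after scaling.

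**Figure D2:**
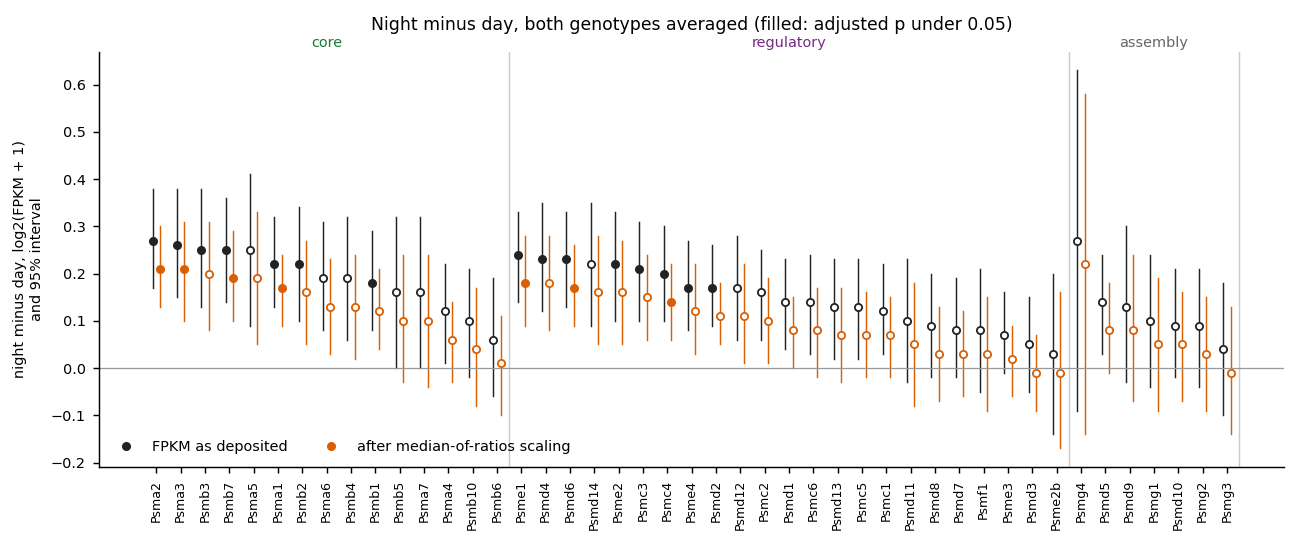
Night minus day on the log2(FPKM + 1) scale, averaged over both genotypes, with 95% intervals, for the 45 parts by class. Black points are FPKM as deposited and orange points FPKM after median-of-ratios scaling, filled where the adjusted p is under 0.05: 15 black and 7 orange points are filled, none of them assembly factors.

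The libraries did not take an equal part in this difference. Of the 45 parts, 0, 4 and 7 were above their own 12-library median in the day WT libraries 1, 2 and 3, and 3, 24 and 16 in day DKO. In night WT the counts were 35, 43 and 36, and in night DKO 39, 28 and 35. The share of all genes above their own median was 27.0%, 41.0% and 37.6% in day WT, 42.0%, 52.8% and 48.1% in day DKO, 59.5%, 70.4% and 49.0% in night WT and 65.7%, 49.4% and 57.4% in night DKO. After scaling they were 5, 9 and 17 in day WT, 5, 21 and 21 in day DKO, 28, 39 and 35 in night WT and 33, 26 and 31 in night DKO, while the share of all genes lay between 49.7% and 50.5% in every library. Summed scaled FPKM of the core subunits was 570 and 576 in replicate 1 of day WT and day DKO, 622 to 659 in the other 4 day libraries and 663 to 697 in the 6 night libraries. Without those 2 day libraries, a choice made after seeing the data, 44 of 45 parts were still above 0, with a median of 0.109 against 0.038 for all genes. Only Psma2 (adjusted p = 0.045) then passed the test, beside 0.615% of all genes that rose, and with scaling 0 of 45 did, beside 0.394% (smallest adjusted p = 0.0613, 41 of 45 above 0, median 0.065). Without replicate 1 of both night groups, 2 parts, Psma2 and Psmb7, passed, beside 0.993% of all genes, with a median of 0.145. With 1 library left out the count of calls ran from 5 (day WT replicate 1 omitted) to 18 (replicate 2 of day DKO omitted). The share of all genes in these single omissions is not given.

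**Figure D3:**
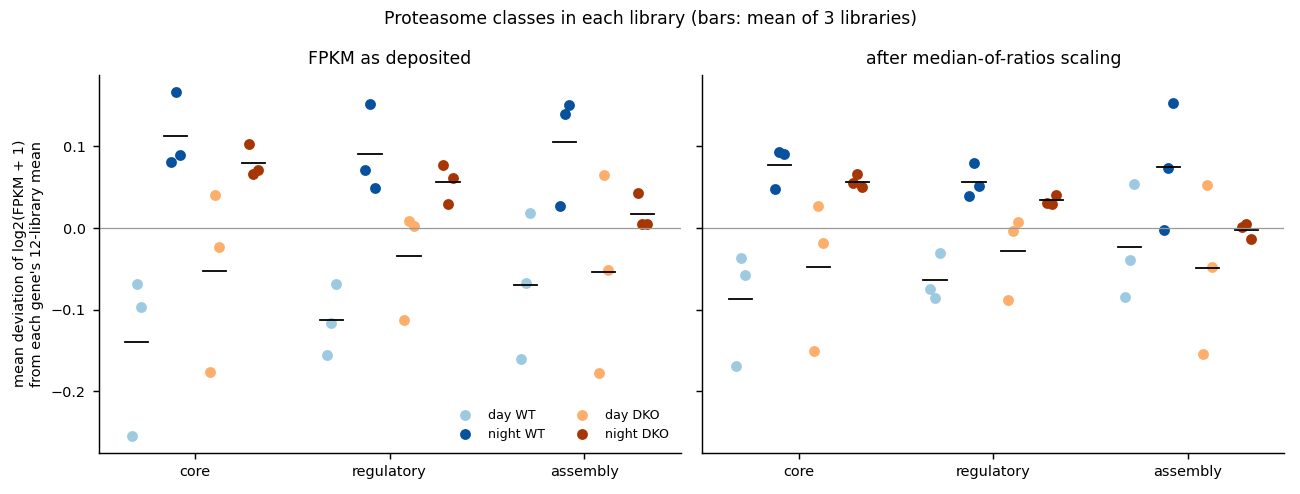
Mean deviation of log2(FPKM + 1) from each gene's 12-library mean, by class, for each library (points) and group (bars, mean of 3), with FPKM as deposited on the left and after median-of-ratios scaling on the right. Replicate 1 of day WT and of day DKO lie lowest among the core subunits in both panels, and all 6 night libraries lie above 0 there.

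Genes of other cell types stood as follows in the same comparison, with FPKM as deposited. All 5 genes of the blood list rose at night, with a median of 0.50, and the list's summed FPKM was 111 to 153 in day WT, 171 to 285 in night WT, 90.5 to 110 in day DKO and 116 to 159 in night DKO. The 12 choroid plexus genes had a median of 0.50 with none called, and their sum ran from 62.2 to 1770 FPKM in day DKO, 1880 to 2980 in night DKO, 1100 to 2740 in day WT and 1340 to 3110 in night WT. Of 8 oligodendrocyte (median 0.17) and 8 astrocyte genes (median 0.08), 2 of each list rose. Of 9 endothelial and mural genes 1 rose and 1 fell (median 0.05). The microglial (median 0.09), neuronal (0.00) and hippocampal subfield lists (-0.08) had none called. No listed marker was at 0 in every library. The part of these cell types in the proteasome result was not tested, other than by a choroid plexus covariate, with which 10 of the 45 parts rose, beside 3.02% of all genes.

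In WT alone, 6 parts rose at night and none fell, beside 1.51% of all tested genes that rose: the core subunits Psma2 (0.33, SE 0.068, adjusted p = 0.0401), Psma1 (0.30, SE 0.062, 0.0429) and Psmb7 (0.34, SE 0.073, 0.0429), and the regulatory genes Psmd6 (0.31, SE 0.063, 0.0393), Psmd4 (0.33, SE 0.074, 0.0468) and Psmd14 (0.38, SE 0.087, 0.0497). Psmd14, the deubiquitinase of the lid, stood at 19.3, 21.2 and 24.8 FPKM in day WT and 27.9, 31.0 and 26.7 in night WT. It read 24.1, 22.5 and 25.1 in day DKO and 26.2, 23.4 and 25.4 in night DKO, where the groups overlapped. All 45 parts were above 0 in WT, with a median of 0.214 against 0.073 for all genes. Every night library was above every day library in 30 of 45 parts (24.3% of all genes). After scaling, 0 parts passed (limma, smallest adjusted p = 0.0796), beside 0.173% of all genes. Unadjusted, 21 parts (46.7%) were under 0.05, against 15.5% of all genes. The median was then 0.135 against 0.005, and 22 parts did not overlap (11.0% of all genes). Unscaled, 0 parts passed when any one of the 6 night libraries, or replicate 1 or 2 of day WT, was left out. The share of all genes in these omissions is not given, so the count does not show whether the parts or all genes moved.

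In DKO alone, 0 of 45 parts passed the test (limma), beside 0.181% of all tested genes that rose. At an unadjusted p under 0.05 in either direction there were 13 parts (28.9%), against 15.1% of all genes. The smallest p belonged to Psme1 (0.24, SE 0.061, adjusted p = 0.113), Psme2 (0.25, SE 0.077, adjusted p = 0.174) and Psma3 (0.23, SE 0.073, adjusted p = 0.180). The difference was above 0 in 41 of 45 parts, with a median of 0.101 against 0.023 for all genes. Night and day did not overlap in 14 parts (12.9% of all genes), and in 12 after scaling (9.88%), when the median was 0.073. With both genotypes together, 10 parts had all 6 night libraries above all 6 day libraries (2.84% of all genes), and 5 after scaling (1.08%): Psma1, Psma2, Psma3, Psmd2 and Psmd6.

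Whether time acted unequally in the genotypes was tested as the interaction, the difference by time in DKO minus that in WT. It was called in 0 of 45 parts (limma) and in 0.0% of all genes. Unadjusted, 5 parts (11.1%) were under 0.05, against 8.66% of all genes. The smallest p belonged to Psmc1 (-0.25, SE 0.084, adjusted p = 0.537), Psmd14 (-0.31, SE 0.12, adjusted p = 0.561) and Psmd10 (-0.24, SE 0.10, adjusted p = 0.563). Psmd10, which lies on chromosome X, was highest in night WT replicate 1 (4.47 FPKM), the library apart in Ddx3y, and stood at 3.96 and 4.23 in the other night WT libraries. The interaction was above 0 in 5 of 45 parts, with a median of -0.117 against -0.046 for all genes, and in 11 after scaling, with a median of -0.059 against 0.001. The calls in WT and their absence in DKO therefore do not show a difference between the genotypes.

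Genotype gave no call. By day, 0 of 45 parts passed at an adjusted p under 0.05 (limma), beside 1.18% of all tested genes. At an unadjusted p under 0.05 stood 6 parts (13.3%), against 17% of all genes. Psmc2, an ATPase, had the smallest p: 22.7, 21.3 and 23.1 FPKM in day WT and 24.6, 28.8 and 26.6 in day DKO, which did not overlap, a difference of 0.24 (SE 0.062, 95% interval 0.11 to 0.38, adjusted p = 0.0848). At night it read 26.9, 27.9 and 26.1 in WT and 27.5, 27.1 and 28.5 in DKO, which did overlap, though scaled values did not (26.2, 26.4 and 26.1 in WT, 26.6, 27.1 and 28.1 in DKO). Without replicate 1 of day DKO the difference by day was 0.30 with an adjusted p of 0.0411. Psmg3, an assembly factor, followed with 0.24 (SE 0.091, adjusted p = 0.205), then Psmd3 with 0.17 (SE 0.065, adjusted p = 0.211). The median over all parts was 0.073 against 0.038 for all genes, and 0.027 against -0.001 after scaling.

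At night, 0 of 45 parts passed (limma), beside 0.0236% of all tested genes. Unadjusted, 3 parts (6.67%) had a p under 0.05, against 9.18% of all genes. The smallest p belonged to Psmd3 (0.16, SE 0.065, adjusted p = 0.495), Psma2 (-0.16, SE 0.068, adjusted p = 0.514) and Psmc1 (-0.13, SE 0.059, adjusted p = 0.526). The median was -0.035 against -0.009 for all genes. Averaged over both times, 0 parts passed (limma), beside 1.88% of all tested genes, and the median was 0.015 against 0.014. Unadjusted, 3 parts (6.67%) were under 0.05 here, against 16.2% of all genes.

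Psmd3 (chr11:98682554-98695978), which had one of the lowest differences by time, led the averaged genotype comparison. It stood at 23.5, 26.1 and 24.1 FPKM in day WT, 24.5, 27.4 and 24.7 in night WT, 26.0, 28.5 and 28.8 in day DKO and 29.6, 28.8 and 27.3 in night DKO. Unscaled, the genotypes overlapped at both times through replicate 2 of WT. After scaling they overlapped by day but not at night (23.9, 25.9 and 24.7 in WT, 28.5, 28.7 and 26.8 in DKO). The difference was 0.16 (SE 0.046, 95% interval 0.06 to 0.26, adjusted p = 0.0932), or 0.15 (adjusted p = 0.0634) after scaling. Psmc2 followed with 0.14 (SE 0.044, adjusted p = 0.127). Psmg1, a chaperone of the alpha ring, read 5.0, 5.29 and 5.47 FPKM in day WT, 5.08, 6.13 and 5.90 in night WT, 4.23, 4.16 and 5.30 in day DKO and 5.70, 4.59 and 4.64 in night DKO. It was lower in DKO by value, at -0.17 (SE 0.067, 95% interval -0.31 to -0.03, adjusted p = 0.221). Averaged over both times, 6 of 10 microglial genes rose in DKO (median 0.65) and 1 of 8 astrocyte genes (0.05), while 3 of 5 blood genes (-0.52), 3 of 9 endothelial and mural genes (-0.22) and 1 of 8 oligodendrocyte genes (-0.23) fell. The choroid plexus list had a median of -0.51, the neuronal list of 0.04 and the hippocampal subfield list of 0.05, with none called. Their part in the genotype values was not tested.

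**Figure D4:**
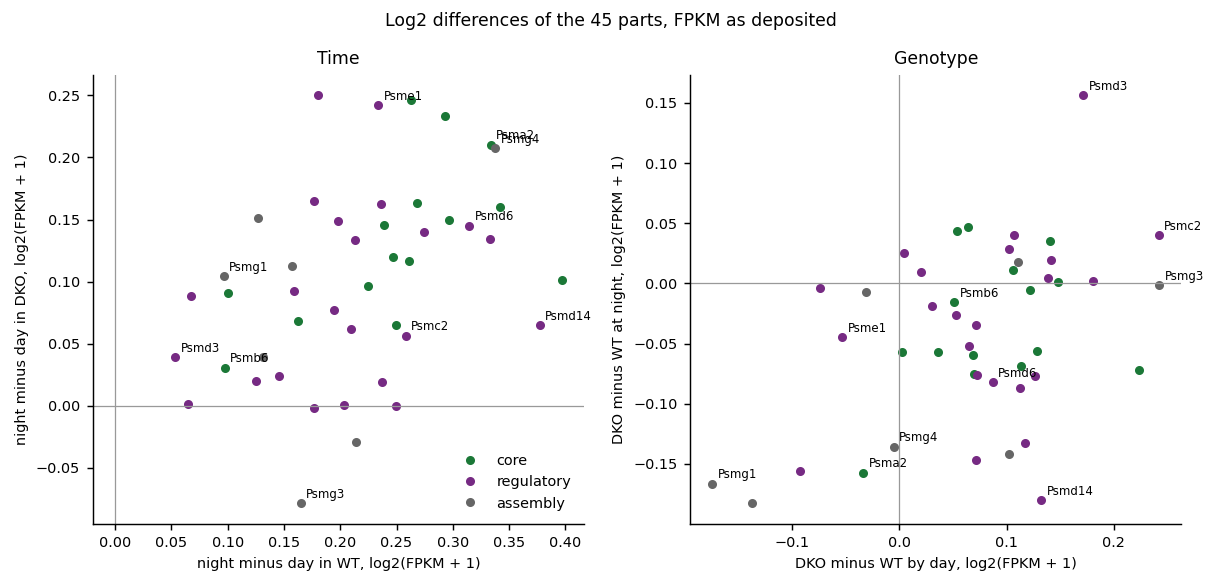
Log2 differences of the 45 parts, FPKM as deposited, coloured by class: night minus day in WT against DKO on the left, DKO minus WT by day against night on the right. All 45 parts lie above 0 by time in WT and 41 of 45 in DKO, while by genotype Psmd3 is apart from the others at the upper right.

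Of 30 other genes of the pathway, 29 were tested. Averaged over both genotypes, 4 rose at night, beside the 5.19% of all genes that rose, and 1 fell, beside 111 of all 12689 genes. Their median was 0.079 against 0.049 for all genes. After scaling 1 rose, beside 1.63% of all genes, and 1 fell, beside 282 of all 12689. The median was then 0.025 against 0.003. Rps27a, which encodes ubiquitin fused to a ribosomal protein, stood at 114, 107 and 113 FPKM in day WT, 104, 113 and 124 in day DKO, 144, 144 and 139 in night WT and 140, 126 and 139 in night DKO. No day library reached a night library, and it rose by 0.30 (SE 0.049, adjusted p = 0.00794), and by 0.24 (adjusted p = 0.0152) after scaling. Zfand5, a proteasome-binding zinc finger protein, rose by 0.20 (adjusted p = 0.0273), the deubiquitinase gene Usp14 by 0.17 (adjusted p = 0.0426) and Nfe2l2 by 0.30 (adjusted p = 0.0421), none of which passed after scaling. Ubqln4, which encodes a shuttle that brings ubiquitinated proteins to the proteasome, stood at 15, 15.1 and 14.5 FPKM in day WT, 15.4, 16.0 and 14.9 in day DKO, 13.1, 13.8 and 13.0 in night WT and 13.7, 13.4 and 13.7 in night DKO. Every night library was below every day library, at -0.16 (SE 0.035, adjusted p = 0.0245) and -0.22 (adjusted p = 0.0047) after scaling. It was the 1 called gene that fell, and 5 of the 29 were below 0 by value, 10 after scaling, among them Ddi2 (-0.14, adjusted p = 0.168) and Ubr4 (-0.12, adjusted p = 0.131). Nfe2l1 (0.05, SE 0.049, adjusted p = 0.585) and Pomp, the maturation chaperone of the core (0.11, SE 0.057, adjusted p = 0.230), did not pass. In the genotype comparisons 0 of the 29 passed (limma). Unadjusted, 4 (13.8%) were under 0.05 by day, 1 (3.45%) at night and 4 (13.8%) averaged, below the 17%, 9.18% and 16.2% of all genes.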

How the data were processed

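The 12 deposited tables hold 1 FPKM value per gene, made by the authors from stranded total RNA libraries depleted of ribosomal RNA, per the labels' protocols. The build was GRCm38.p6, per the submitters' processing notes; which aligner and quantifier were used is not given in the sources used. Read depth is unknown, and FPKM summed to 151059 to 175692 per library. Values were taken as log2(FPKM + 1), which understates folds of low genes, for 12689 genes with at least 0.5 FPKM in 3 or more libraries. Group means were fitted with limma 3.58.1 in R 4.3.3, with a mean-variance trend and Benjamini-Hochberg adjustment. The fit was also run on simulated data with independent noise. The differences set there were larger than that of any called part, so that run does not cover the sizes reported here. Median-of-ratios factors were computed over the tested genes. Named genes were, per comparison, up to 4 called members of each class with the smallest p, or the 3 smallest p where fewer were called, the highest and lowest level of each class, members next to the floor, called pathway genes, Nfe2l1 and Pomp. Members and lists were chosen with earlier results of these data known. For the length trend, the longest protein-coding transcript of GENCODE was used in place of the median one first tried, since short fragment models pulled the median down for genes such as Psmd2 and Psme4; both counts are given. Replicate numbers are not stated to pair samples. The check of the genotype labels rests on Psen2, and another item is not reported here.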

Additional observations from a re-analysis of the deposited data

How the results depend on the processing

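Of the averaged time comparison's 15 calls, 7 passed after median-of-ratios scaling, and 6 once the trend on transcript length was removed (7 with the median in place of the longest transcript, an alternative kept after its count had been seen). Of all tested genes, 5.19% rose in the original fit, 1.63% after scaling and 1.77% without the trend on the longest transcript. When single libraries were left out, 5 to 18 parts were called: 5 without day WT replicate 1, 6 without replicate 2 of night WT, 7 without either replicate 1 or 3 of night DKO, and 8 if day DKO replicate 1 or one of the night WT replicates 1 and 3 was omitted. With scaling as well, chosen after seeing the data, single omissions gave 0 to 8: 0 if night WT replicate 3 was omitted, 1 for replicate 1 of either day group or replicate 3 of night DKO, 2 for night DKO replicate 2, 3 and 4 for night WT replicates 2 and 1, and 6 or more otherwise. Leaving out replicate 1 of both day groups gave 1 call, or 0 with scaling, and of both night groups 2. Beside these, 0.615%, 0.394% and 0.993% of all genes rose. For the other settings in this section the share of all genes is not given here. Their counts alone do not show whether the parts or all genes moved. Psma2 was called in 34 of the 36 alternatives of this comparison, the most of the 15, with adjusted p (limma) from 0.00743 to 0.0613. The counts were lower for Psma1 (28), Psma3 (26), Psmb7 (26), Psmd6 (25), Psme1 (23) and Psmc4 (17). They were lower still for Psmb3 (14), Psmd4 (13), Psmc3 (12), Psmd2 (12), Psme2 (7), Psmb2 (6), Psmb1 (4) and Psme4 (4). Every part called in the original fit was above 0 in all 36 alternatives. So were parts that no alternative called, such as Psma4, Psmb4 and Psmb5. The alternatives reuse the same libraries, so the shared sign is no separate support for the calls. In WT, 6 calls became 0 under median-of-ratios scaling, quantile normalization, removal of the length trend with either length, no filter, a fit of only the groups compared, and without either pair of libraries, 12 with quality weights, and 0 to 8 when single libraries were left out: 0 for each night library and for replicates 1 and 2 of day WT, and 3 for replicate 3 of day DKO. Without day DKO replicate 1, 1 part was called by day between genotypes, and other settings gave 0 there. The other comparisons gave 0 under every alternative run.  The causes were not tested.

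The replicate number as a block gave 15 calls in the averaged time comparison, 5 in WT and 0 elsewhere. The labels do not say that a number marks a shared source. Deviations of same-numbered libraries correlated from -0.116 to 0.247, over 0.1 in 7 of 18 pairs. Every pair was over 0.1 for 1 of 6 pairs of groups, night WT with day DKO (0.168, 0.247 and 0.171). No comparison of single groups sets these against each other, but both averaged comparisons do. By the mean correlation with the other groups, 10 of 12 libraries correlated best with their own number. These outcomes are not independent, since each correlation counts for both of its libraries, and no chance level was computed. The count therefore cannot decide whether the numbers pair the libraries, which was not tested. FPKM tables carry no depth, so counting error is unknown.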
